A study of Mus musculus with 6 samples.

Results

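The genes described here are 7 core genes of the renin-angiotensin system, namely Agt, Ren1, Atp6ap2, Ace, Agtr1a, Agtr2 and Mas1, read from 8 of the 55681 probes of a mouse expression array. They were chosen by name, through the RefSeq transcript accession that the scanner files give for each probe, out of 20284 genes named in this way. Mas1 has 2 probes and every other gene has 1. Captopril cells received 0.01 M captopril, an inhibitor of angiotensin-converting enzyme (ACE), for 24 h, and water cells received sterile water, for which the labels also give 0.01 M. Both groups were mouse spermatogonial stem cells grown from dissociated testis cells on mouse embryonic fibroblast (MEF) feeders, so each RNA sample can hold transcripts of the feeder cells as well. Each group has 3 single-colour arrays, numbered 2, 3 and 4, of samples that the labels call independent. Strain, age and the number of mice are not given in the sources used here, so the p-values measure the spread between these samples. Because the samples are bulk RNA, fewer cells of a type and less RNA per cell cannot be told apart.

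In the renin-angiotensin system, the protease renin cuts angiotensinogen to angiotensin I, and ACE trims this peptide to the hormone angiotensin II. Angiotensin II acts through the type 1 receptor, which drives contraction, growth and MAP kinase signalling, and through the type 2 receptor, which often opposes it, is abundant in fetal tissues and mostly falls after birth. The receptor Mas answers to a shorter angiotensin peptide. In the testis the Ace gene has a second role: haploid germ cells start transcription inside the gene and make a short testis form with a single catalytic domain, whereas somatic ACE has a pair. The title of the series concerns the somatic form, and its design text gives the inhibition of somatic ACE as the reason for using captopril. The arrays measure transcripts and not ACE activity.

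The starts of Ace and Agtr2 are shown because the Ace locus has a somatic and an internal start and because Agtr2 is the gene of the set that differed most between the groups. The sequences are the 250 bases before each start in RefSeq, build GRCm38.p6, plus strand, written from 5′ to 3′. Capitals mark TATAA (the core of a TATA box), GGGCGG (a GC box) and TGAGGTCA (a CRE-like element), searched on both strands.
Ace, outer start, chr11:105967698-105967947: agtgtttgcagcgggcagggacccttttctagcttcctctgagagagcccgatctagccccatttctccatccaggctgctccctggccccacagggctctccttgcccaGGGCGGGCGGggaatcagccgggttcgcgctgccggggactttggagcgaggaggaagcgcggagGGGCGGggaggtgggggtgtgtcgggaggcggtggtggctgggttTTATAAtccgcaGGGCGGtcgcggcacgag
Ace, inner start, chr11:105974939-105975188: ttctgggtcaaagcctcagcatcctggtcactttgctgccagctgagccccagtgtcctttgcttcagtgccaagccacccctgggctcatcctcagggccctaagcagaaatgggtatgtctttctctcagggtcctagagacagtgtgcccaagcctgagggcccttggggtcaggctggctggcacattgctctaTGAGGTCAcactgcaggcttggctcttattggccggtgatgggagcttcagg
Agtr2, chrX:21484374-21484623: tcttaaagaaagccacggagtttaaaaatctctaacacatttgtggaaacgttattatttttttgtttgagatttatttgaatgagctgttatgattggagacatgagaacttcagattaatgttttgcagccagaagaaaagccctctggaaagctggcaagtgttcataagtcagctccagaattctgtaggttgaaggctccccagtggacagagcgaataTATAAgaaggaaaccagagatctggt

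The starts of Ace listed in that table lie 7241 bases apart. The window of the outer start held TATAA on the plus strand 29 bases before the start, overlapping its match on the other strand, and GGGCGG 18, 75, 136 and 140 bases before it. The window of the inner start held neither of these motifs and held TGAGGTCA 52 bases before the start. The Agtr2 window held TATAA 26 bases before the start and no GGGCGG. Over all 32851 such windows, 22.8% held TATAA, 32.7% held GGGCGG and 1.94% held TGAGGTCA. The probe for Ace carries the accession NM_009598, which is 1 of 3 RefSeq transcripts of the gene. Its sequence was not used here, so the arrays do not tell somatic from testis transcripts by themselves.

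Levels below are log2 of the background-corrected signal minus the 75th percentile of the array, so that 0 is the signal of that percentile. A probe is called well above background where the scanner program set that flag. Water replicate 3 stood apart: over 32380 probes it correlated with the remaining arrays at 0.878 to 0.893, and those 5 correlated among themselves at 0.970 to 0.991. The fits and the counts over gene lists are therefore also given without it, which leaves 2 water arrays, whereas likeness between genes is given over 6 arrays only. The share of spots well above background was 57.3% to 59.7% on captopril arrays and 52.2% to 60.5% on water arrays, and the number of arrays limits the precision. All 12 markers of germ cells and undifferentiated spermatogonia were measured, with Gfra1 not well above background on water replicate 3. All 12 markers of feeder fibroblasts were measured as well. Of 10 spermatid markers 4 (Prm1, Prm2, Odf1 and Acr) were not well above background on any array.

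The substrate and the enzyme that opens the pathway were not well above background on any array. For Agt (NM_007428), which encodes angiotensinogen, the processed signal was 20.5, 16.9 and 15.6 on captopril arrays 2, 3 and 4, against 14.4, 15.7 and 23.1 on water arrays 2, 3 and 4. The spot errors were 20.6, 16.9 and 15.6 on captopril arrays 2, 3 and 4, and 14.4, 15.8 and 23.2 on water arrays 2, 3 and 4. Each was about as large as its signal, which is already background-corrected. The uncorrected local background around these spots was 25 to 29 on captopril arrays and 26 to 30 on water arrays. The signals of the groups overlapped. For Ren1 (NM_031192), which encodes renin, the signal was 40.1, 32.8 and 14.1 on captopril arrays, against 12.7, 14.8 and 20.5 on water arrays. Captopril replicates 2 and 3 stood above the other 4 arrays and alone carried the weaker flag for a signal different from background. Neither gene could enter the test, which asked for a probe well above background on at least 3 arrays, and no fold change is given. Ren1 has a near-identical neighbour in some mouse strains, Ren2, and whether the Ren1 probe also detects it was not tested.

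Atp6ap2, the (pro)renin receptor and also an accessory subunit of the vacuolar proton pump, was bright on every array. Its level was 1.59, 1.71 and 1.75 on captopril arrays 2, 3 and 4, against 1.81, 2.56 and 1.56 on water arrays 2, 3 and 4. The groups overlapped, and water replicate 3 was the highest of all. The log2 fold change (captopril minus water) was −0.29, with an SE of 0.30 and a 95% interval of −1.01 to 0.42 (limma, adjusted p = 0.736). On the 5 arrays left after dropping water replicate 3 the value was −0.0012, with an interval of −0.37 to 0.37. In row 2 of the slide, where all captopril arrays lay beside water replicate 4 alone, it was 0.13.

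Ace (NM_009598), the gene of the drug's target, gave nearly the same signal with and without the drug. The processed signal was 367, 359 and 296 on captopril arrays 2, 3 and 4, with spot errors of 41.6, 40.7 and 34.0 from the scanner program. On water arrays 2, 3 and 4 it was 376, 235 and 342, with spot errors of 40.6, 30.7 and 39.4. After scaling, the level averaged −2.93 ± 0.24 on captopril arrays and −3.07 ± 0.22 on water arrays (SD, n = 3 each), and the groups overlapped. The log2 fold change was 0.15, with an SE of 0.24 and a 95% interval of −0.43 to 0.72 (limma, adjusted p = 0.846). Its sign depended on the scaling, being −0.096 with quantile normalization and −0.16 with the array median. Scaling by the array median put the median of all genes at −0.33, against −0.03 with the 75th percentile. Both scalings subtract a constant per array, so relative to that median Ace must stand at the same value, 0.18, under both. With quantile normalization Ace was at −0.048 relative to the median of all genes. With water replicate 3 left out, the log2 fold change of Ace was 0.18, with an interval of −0.32 to 0.68.

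Markers of cells that are known to be rich in an ACE form were read beside Ace. Of the 10 spermatid markers 4 entered the test, with 2 positive and 2 negative values over 6 arrays and 3 positive and 1 negative without water replicate 3, and the summed signal of these 4, relative to the 75th percentile, was 2.25 to 2.53 on captopril arrays and 2.25 to 3.76 on water arrays. Tnp1, a transition protein of condensing spermatid nuclei, was well above background on all 6 arrays, as were Spaca1 and Tssk6. Prm1 and Prm2, the protamines, reached the flag on none. Crisp2 had the smallest p of the 4, with a log2 fold change of 1.55 over 6 arrays (SE 0.44, limma adjusted p = 0.517) and 1.11 on the 5 arrays other than water replicate 3 (adjusted p = 0.113). It was well above background on 3 captopril arrays and 1 water array, and its groups did not overlap. The 2 negative values over 6 arrays were Spaca1 at −0.88 and Tssk6 at −0.25. Without water replicate 3 these genes stood at −0.68 and 0.09. Of 6 endothelial markers 4 entered the test, with 3 positive and 1 negative values (median 0.45) over 6 arrays, and 2 of each sign (median 0.05) without water replicate 3. Their summed signal was 0.585 to 0.806 on captopril arrays and 0.521 to 0.584 on water arrays. Emcn had the smallest p, at 0.62 over 6 arrays (SE 0.26, limma adjusted p = 0.605) and 0.43 on the other 5. Kdr was well above background on all 6 arrays, and Pecam1 and Emcn on 3 captopril and 2 water arrays. Cdh5, the cadherin that defines endothelium, reached the flag on 1 water array only, and Tek on 1 captopril array only. The part of these cells in the Ace signal was not tested.

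**Figure D1:**
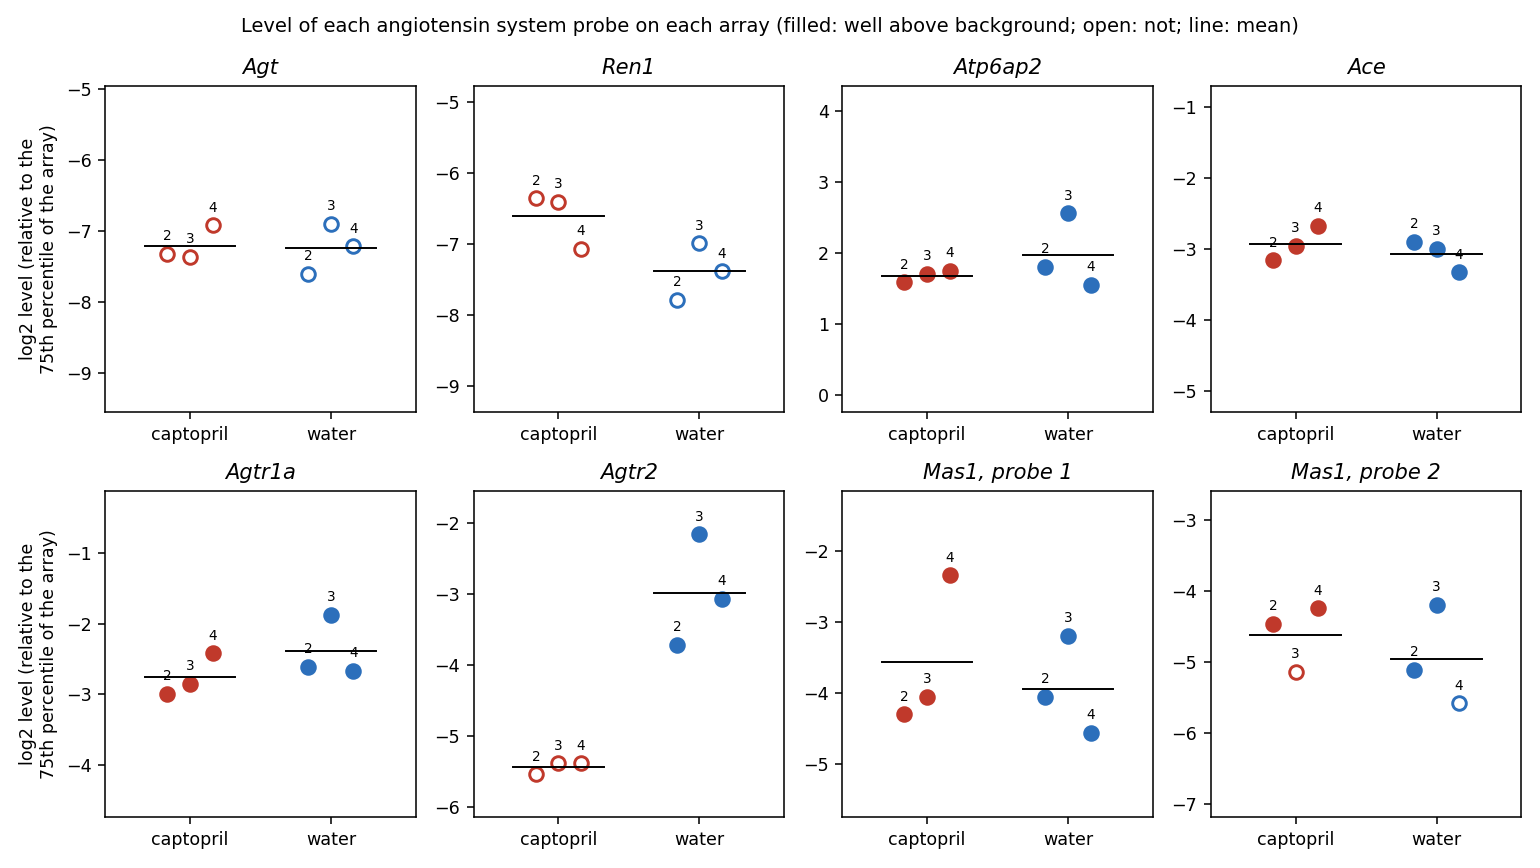
Level of the 8 probes on each array, in log2 relative to the 75th percentile of the array, with captopril arrays (red) left of water arrays (blue), replicate numbers above the points and the group mean as a line. Filled points are well above background and open points are not. The y axes span the same range in all panels but are centred on each probe. The groups overlap for every probe except that of Agtr2, where the captopril arrays lie between −5.54 and −5.38 and the water arrays between −3.71 and −2.15.

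Of the receptors, Agtr2 was lower on all captopril arrays than on all water arrays, whereas Agtr1a and Mas1 overlapped. Agtr2 (NM_007429) encodes the type 2 angiotensin II receptor and lies on the X chromosome at 21484624 to 21488833 (GRCm38.p6). Its processed signal was 70.6, 66.7 and 45.1 on captopril arrays 2, 3 and 4, with spot errors of 18.6, 17.7 and 15.5. Water arrays 2, 3 and 4 gave 214, 421 and 410.1, with spot errors of 24.9, 45.0 and 45.3. The signals thus did not overlap even before scaling, and the brightest captopril spot was below the dimmest water spot by more than the error of either. Agtr2 was well above background on no captopril array and on all 3 water arrays, while the weaker flag for a signal different from background was set on all 6.

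After scaling, the level of Agtr2 was −5.54, −5.38 and −5.38 on captopril arrays 2, 3 and 4, against −3.71, −2.15 and −3.06 on water arrays 2, 3 and 4. The captopril arrays lay close together (SD 0.09, n = 3) and the water arrays were spread widely (SD 0.78, n = 3), with water replicate 3 the highest. The dimmest well-measured probe of every captopril array was taken as a limit. The mean water level of Agtr2 was 4.48-fold above the mean of these limits. This value compares means and does not count the spread between arrays. The fitted log2 fold change, which rests on captopril signals under that limit, was −2.46 with an SE of 0.39 and a 95% interval of −3.39 to −1.53. Over all genes tested its adjusted p was 0.455 by limma, so it did not pass the test, and its unadjusted p was 0.00040. An exact permutation test of the levels gave a two-sided p of 0.1, the smallest that 3 arrays against 3 can give.

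Without water replicate 3 the call on Agtr2 changed. The level averaged −5.44 ± 0.09 on captopril arrays (SD, n = 3) and −3.39 ± 0.46 on water replicates 2 and 4 (SD, n = 2), so the difference was smaller and the spread was smaller too. The mean level of water replicates 2 and 4 was 3.37-fold above the mean captopril limit. The fitted log2 fold change was −2.05, with an SE of 0.21 and an adjusted p of 0.036 by limma. In that fit Agtr2 passed the test. The call was lost again with quantile normalization, with no filter on dim probes, and when captopril replicate 3, captopril replicate 4, water replicate 2 or water replicate 4 was left out as well. It was kept with normexp background correction, with scaling by the array median and without captopril replicate 2. With water replicate 4 as the only water array, all of slide row 2, which held every captopril array, the log2 fold change was −2.37. The direction was the same in each of these, as it had to be where arrays were left out, because the groups do not overlap.

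The filter bears on how Agtr2 is read. It entered the test only through its 3 water arrays, so a gene with this pattern had to differ in the flag. Among the 14860 genes tested, 227 were well above background on exactly 3 arrays, of which 50 (0.336% of all genes tested) had the 3 water arrays and 18 (0.121%) had the 3 captopril arrays. Agtr2 is 1 of the 50. Of 12 fibroblast markers 9 had negative values, with a median log2 fold change of −0.49, and none passed the test. Their summed signal was 121 to 154 on captopril arrays and 141 to 253 on water arrays, where water replicate 3 was highest and the other water arrays lay within the captopril range. Without that array 8 of 12 were negative, with a median of −0.22. Of 4 tested Sertoli and Leydig cell markers 3 were negative (median −0.42), and 2 without water replicate 3 (median −0.06). The 12 germ cell markers had 6 values of each sign (median 0.05), and 7 positive and 5 negative without water replicate 3 (median 0.10). The 5 tested macrophage markers had 3 positive and 2 negative values in both fits. The part of any of these cells in the Agtr2 result was not tested.

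Agtr1a (NM_177322), the main type 1 angiotensin II receptor gene of the mouse, was well above background on all 6 arrays. Its level was −2.99, −2.85 and −2.42 on captopril arrays 2, 3 and 4, against −2.61, −1.87 and −2.67 on water arrays 2, 3 and 4. Captopril replicate 4 lay within the water range and water replicate 3 was the highest of all. The log2 fold change was −0.37, with an SE of 0.30 and a 95% interval of −1.08 to 0.34 (limma, adjusted p = 0.669). Dropping water replicate 3 put it at −0.11, with an interval of −0.59 to 0.36. The second type 1 receptor gene, Agtr1b, was not well above background on any array.

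Mas1 (NM_008552), the Mas receptor gene, overlapped between the groups on both of its probes. Its brighter probe had a level of −4.31, −4.06 and −2.35 on captopril arrays 2, 3 and 4, against −4.06, −3.20 and −4.57 on water arrays 2, 3 and 4. Captopril replicate 4 thus stood far above the other captopril arrays, which lay within the water range. The log2 fold change was 0.37 with an SE of 0.58 (limma, adjusted p = 0.837), it was 0.74 without water replicate 3, 0.056 without water replicate 4 and −0.24 without captopril replicate 4. The other probe gave −4.46, −5.14 and −4.24 on captopril arrays, against −5.11, −4.20 and −5.59 on water arrays, and was well above background on 2 arrays of each group. On that probe captopril replicates 2 and 4 lay close together, so the probes did not show the same order of arrays. Its log2 fold change was 0.35 (SE 0.43, limma adjusted p = 0.734) over 6 arrays and 0.73 (SE 0.29, adjusted p = 0.235) without water replicate 3.

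**Figure D2:**
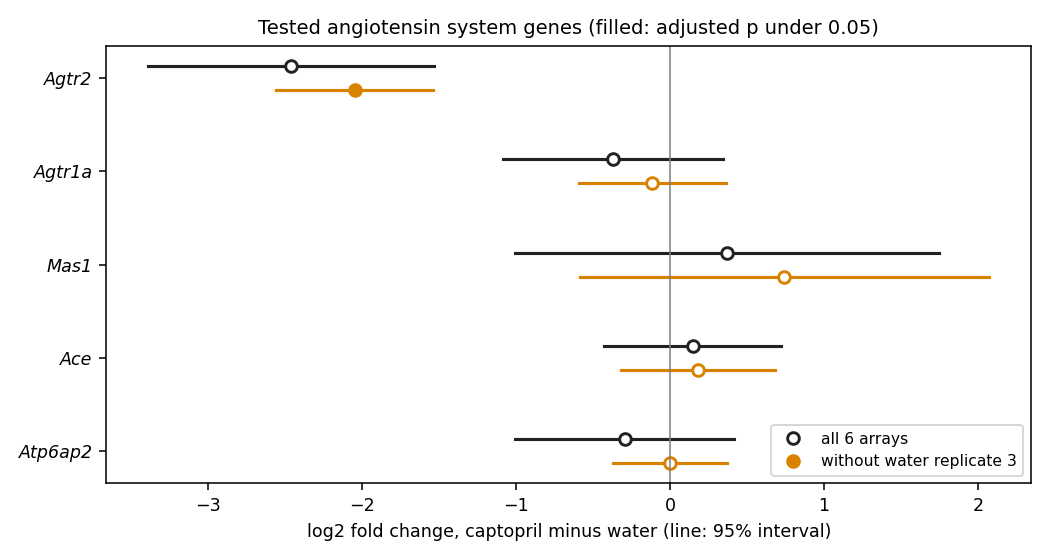
For each of the 5 genes tested, the log2 fold change (captopril minus water) with its 95% interval, over all 6 arrays (black) and without water replicate 3 (orange); filled points have an adjusted p under 0.05. The interval of Agtr2 lies below 0 in both fits, from −3.39 to −1.53 and from −2.56 to −1.54, and rests on captopril signals that were not well above background. The intervals of Agtr1a, Mas1, Ace and Atp6ap2 include 0.

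Over the set, 5 of the 7 genes could be tested, and 3 of these had negative values over 6 arrays, with a median log2 fold change of −0.29 against −0.03 for all genes tested. Their groups did not overlap in 1 of 5 genes, Agtr2, against 21.5% of all genes tested, so this share is near that of the whole array. At an unadjusted p under 0.05 there was again 1 of 5, Agtr2, against 8.24% of all genes, 4.93% lower and 3.31% higher with captopril. Both counts rest on Agtr2 and its entry through the water arrays, so they are no result about the set. Dropping the filter on dim probes gave 2 of 7 at that p, against 1523 of 20268 genes. That fit takes in Agt and Ren1, which were not well above background on any array. limma called 0 of the 14860 genes (0%) at an adjusted p under 0.05 over 6 arrays, where 1224 had an unadjusted p under 0.05. Without water replicate 3 the median of the 5 genes was −0.0012, against 0.07 for all genes. limma then called 1 of them, against 0.619% of all genes in either direction and 0.202% called lower. The gene called was Agtr2, which entered the test only through its 3 water arrays, so the call is no result about the set. With no filter on dim probes its adjusted p was 0.096 by limma, and 0 genes were called. With the filter, the share of all genes at an unadjusted p under 0.05 without water replicate 3 was 19.1%. In that comparison the groups did not overlap in 1 of 5, against 42.9% of all genes. Fitted over every probe instead, Agtr2 had an adjusted p of 0.553 over 6 arrays and of 0.042 without water replicate 3. The shares of all probes called there were 0% and 0.281%, and those at an unadjusted p under 0.05 were 8.85% and 19.9%.

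Around these genes, 17 of 31 genes of the wider renin-angiotensin and kinin pathway could be tested, 7 with positive and 10 with negative values and a median of −0.27. None passed the test over 6 arrays, and without water replicate 3 the single one was Agtr2, with 8 positive and 9 negative values and a median of −0.0012. Besides Agt and Ren1, genes not well above background on any array included Mrgprd, Agtr1b, the chymase Cma1, Cpa3, Ctsg, Klk1 and the bradykinin receptor genes Bdkrb1 and Bdkrb2. Ren2, Mme and Cma2 reached this flag on 1 water array each. The kininogen gene Kng1, whose product bradykinin is an ACE substrate, had a log2 fold change of 0.71 without water replicate 3 (limma, adjusted p = 0.096) and of 0.28 over 6 arrays.

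Genes that act with the receptors did not pass the test in either fit. Of 17 genes of type 1 receptor coupling, 16 were tested, with 6 positive and 10 negative values and a median of −0.11. This balance turned without water replicate 3, to 9 positive and 7 negative values with a median of 0.13. Cybb, a catalytic subunit of NADPH oxidase, had the smallest p, with −0.69 over 6 arrays (SE 0.28, limma adjusted p = 0.595) and −0.44 without water replicate 3. All 11 listed partners and responders of the type 2 receptor were tested, with 2 positive and 9 negative values and a median of −0.11. On the other 5 arrays there were 7 positive and 4 negative values with a median of 0.05, so this balance turned as well. Timp3, an inhibitor of metalloproteinases, had the smallest p of these, at −1.01 over 6 arrays (SE 0.37, limma adjusted p = 0.589) and −0.65 without that array.

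Transcripts known to be induced by angiotensin II had 8 positive and 5 negative values among 13 tested of 15, with a median of 0.37, and 9 positive and 4 negative values with a median of 0.13 without water replicate 3. None passed the test. The member with the smallest p was Il6, the cytokine interleukin-6, for which every captopril array missed the flag. Its mean water level was 1.45-fold above the mean captopril limit over 6 arrays, and 1.25-fold without water replicate 3. The adjusted p of Il6 by limma was 0.455 over 6 arrays and 0.076 without water replicate 3. Like Agtr2, it entered the test only through its 3 water arrays, so its p and its place in the list rest on that filter. The list of vacuolar proton pump genes held 16 chosen subunits, of which Atp6ap2 is an accessory one, and all of these were tested. They had 7 positive and 9 negative values and a median of −0.08, against 10 positive and 6 negative values and a median of 0.06 without water replicate 3. Atp6v1c1 had the smallest p over 6 arrays (−1.51, SE 0.67, limma adjusted p = 0.613) and Atp6ap1 without water replicate 3 (−0.91, SE 0.34, adjusted p = 0.223). Of 9 genes of other ACE substrates and of the peptide Ac-SDKP, which ACE degrades, 4 were tested, 1 with a positive and 3 with negative values (median −0.26), and 2 of each sign without water replicate 3 (median 0.04). Prep, a peptidase that releases Ac-SDKP, had −0.78 over 6 arrays (SE 0.44, limma adjusted p = 0.631) and −0.27 without that array.

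**Figure D3:**
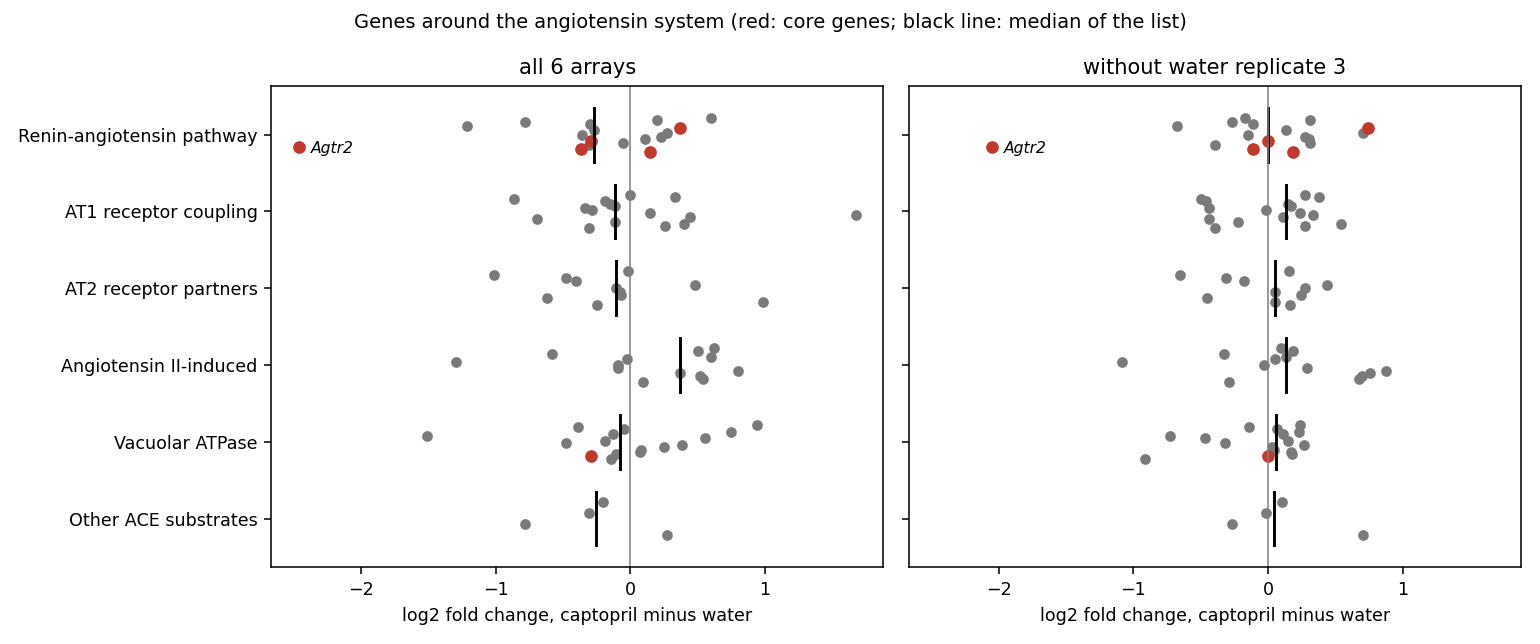
Log2 fold change, captopril minus water, of every tested gene of 6 lists around the angiotensin system (points; core genes in red) with the median of each list (black line), over all 6 arrays (left) and without water replicate 3 (right). Medians run from −0.27 to 0.37 on the left and from −0.0012 to 0.13 on the right, and Agtr2 lies lowest in both panels, where its captopril signals were not well above background.

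The genes whose level over the 6 arrays was most like that of a core gene were found among 14264 named genes, as a description. For Agtr2 they were Btbd17, Tbata and Rrm2, a subunit of ribonucleotide reductase, with Pearson r of 0.997, 0.994 and 0.991. For Ace they were Nsd3, a histone methyltransferase gene, Scnm1 and the oxytocin receptor gene Oxtr, with r of 0.995, 0.99 and 0.99. For Atp6ap2 they were Pcgf5, Mrpl30 and Wdr82, each with r of 0.999. An r over 0.99 was found for 8 genes with Agtr2, 2 with Ace and 46 with Atp6ap2. Agtr2, Atp6ap2 and the 6 genes named with them all had their highest level on water replicate 3.

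The value of Agtr2 was recomputed under each other way of processing. Over 6 arrays it ran from −2.83 to −1.59, and without water replicate 3 from −2.37 to −1.29. The values nearest 0 came from normexp background correction, which adds an offset to dim signals, at −1.59 over 6 arrays and −1.29 without water replicate 3. No setting turned the direction, which leaving out arrays could not do, because the groups do not overlap.

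**Figure D4:**
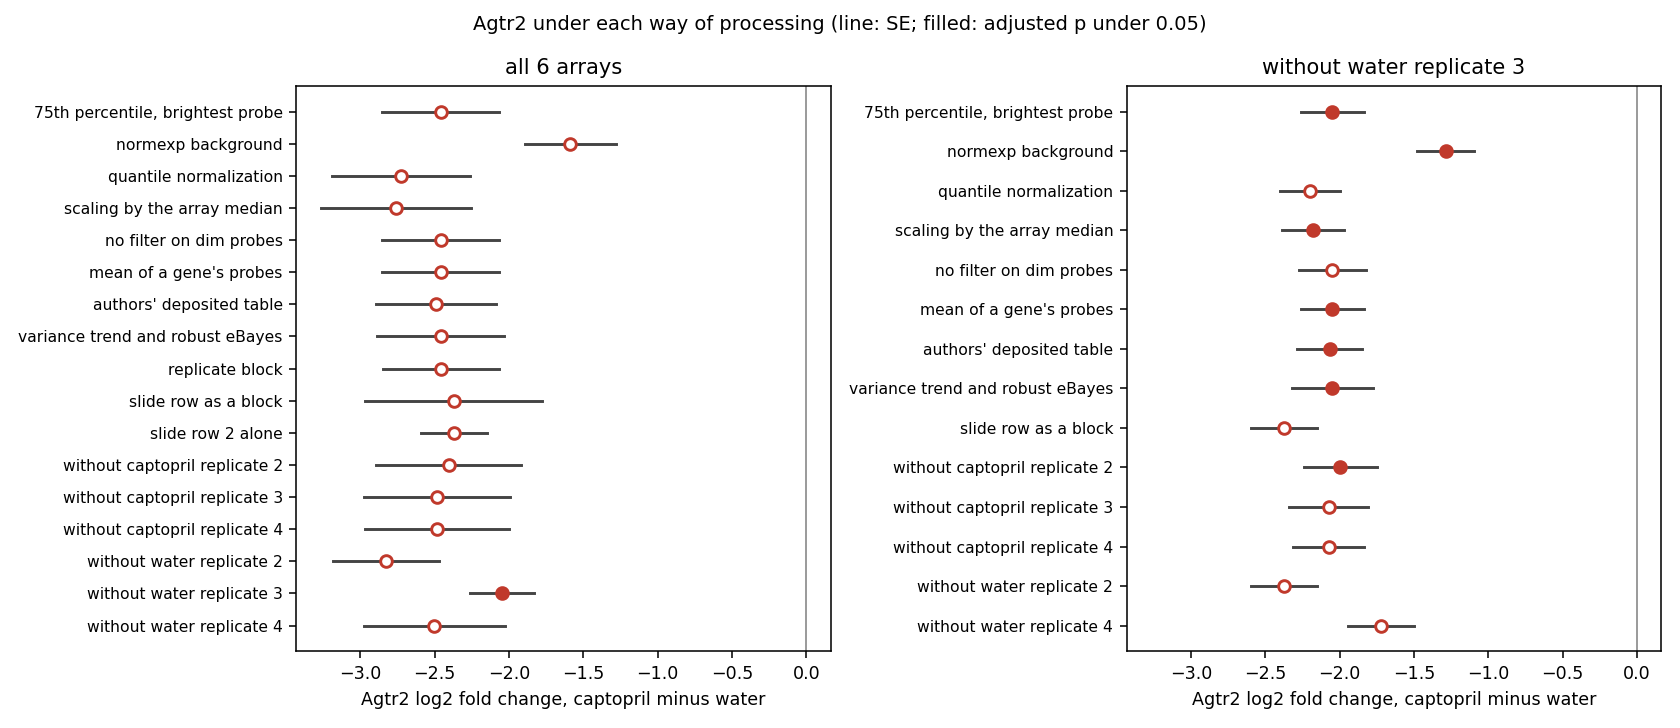
Agtr2 log2 fold change, captopril minus water, with its SE under each way of processing, starting from all 6 arrays (left) and from the 5 arrays without water replicate 3 (right); filled points have an adjusted p under 0.05. All values lie between −2.83 and −1.29, and over 6 arrays the adjusted p passed 0.05 only where water replicate 3 was left out. The captopril signals behind these values were not well above background.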

How the data were processed

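Spot intensity was deposited as scanner output. Per the file headers the program was Agilent Feature Extraction 11.5.1.1, while the submitters' processing notes name version 10.7; it subtracted background on each array and flagged spots. The log2 values of the authors' deposited table correlated with log2 of these signals at r = 1 on every array, with 100% of differences within 0.01 of a constant per array; their column medians were −4.24 to −3.62, its centring lies near the 75th percentile, and it served as an alternative.

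Here, log2 of the processed signal minus the 75th percentile of the array was used, without control spots and outlier flags, and repeated spots were averaged. Probes were named through RefSeq (GRCm38.p6), which named 26762 of 55681 probes. Probes had to be well above background on 3 or more arrays, and the brightest stood for its gene. In R 4.3.3, lmFit and eBayes of limma 3.58.1 compared 14860 genes, and 32380 probes, two-sided, and Benjamini-Hochberg adjusted p-values under 0.05 were called. The code was tested on simulated data.

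Row 1 of the slide held water replicates 2 and 3, and row 2 held the remaining 4 arrays. Alternatives were normexp on the median signals, another scaling, filter, probe rule, variance model, table, block, threshold, and arrays left out. The genes, lists and alternatives were chosen with earlier results of these data known. Genes named beside the 7 are, per list, those past the threshold or the one with the smallest p, and the 3 most like a core gene; cell type markers were named outside this rule, with their values seen. Plots used matplotlib 3.10.9.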

Additional observations from a re-analysis of the deposited data

How the results depend on the processing

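Over 6 arrays the count of genes called stayed at 0 in every setting except when 1 array was left out in turn, where it ran from 0 to 92, and that of core genes from 0 to 1, both highest without water replicate 3. Leaving out 1 array put Agtr2 at −2.83 to −2.05 (called without water replicate 3) and Mas1 at −0.24 to 0.74. Ace turned to −0.096 with quantile normalization and −0.16 with the array median, and Atp6ap2 to 0.13 in slide row 2 or with the row as a block. Without water replicate 3, where 92 genes and 1 core gene were called, 0 genes and 0 core genes were called with quantile normalization, with no filter on dim probes and in slide row 2, where Agtr2 stood at −2.20, −2.05 and −2.37. The array median called 39 genes and an adjusted p under 0.1 called 627. A filter on all 6 arrays left Agtr2 out, so 0 core genes were called. Leaving out 1 further array gave 0 to 87 genes, 0 to 1 core genes and Agtr2 at −2.37 to −1.72. The cause of these changes was not tested. No captopril array lay in slide row 1, so slide row and treatment were partly mixed. Over 6 arrays the slide row as a block put Agtr2 at −2.37 with an SE of 0.60 (limma, adjusted p = 0.9999). In that fit 344 genes had an unadjusted p under 0.05, against 1224 without a block. The replicate number as a block kept 0 genes called (1363 at an unadjusted p under 0.05) and Agtr2 at −2.46 with an adjusted p of 0.299. Deviations of same-numbered arrays from their group means correlated at 0.0068, 0.029 and −0.15, and 1 of 3 captopril arrays correlated best with its own number. Water replicate 3, which stood apart, enters the water mean, so this check could miss a pairing. Whether the numbers pair the samples was not settled, and the main fit did not pair them. Signals of Agt and Ren1, and of Agtr2 with captopril, are limited by the background.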

Other observations

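Ren2, the near-identical copy of Ren1, had a signal of 56.7, 49.9 and 44.2 on captopril arrays 2, 3 and 4, against 239, 38.5 and 24.8 on water arrays 2, 3 and 4. Only water replicate 2 was well above background, and Ren1 had its lowest signal, 12.7, on that array.

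Among the transcripts known to be induced by angiotensin II, 4 had log2 fold changes of 0.68 to 0.87 without water replicate 3 and are named because of these values. Egr1, an immediate early transcription factor, stood at 0.87, the matricellular genes Ccn2 and Ccn1 at 0.76 and 0.70, and the chemokine gene Ccl2 at 0.68. Their adjusted p by limma were 0.079, 0.080, 0.081 and 0.094, so none passed the test. Over 6 arrays they stood at 0.80, 0.37, 0.52 and 0.54.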
